A study of Mus musculus with 2 samples.

Results

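Tnfrsf9 and 9 related genes of the tumour necrosis factor (TNF) superfamily were followed in CT26 cells, a mouse colon cancer line, with and without knockdown of Setdb1, a histone H3 lysine 9 methyltransferase. They are 8 further receptors (Tnfrsf1a, Tnfrsf1b, Tnfrsf10b, Tnfrsf12a, Tnfrsf21, Fas, Ltbr and Cd40) and Tnfsf9, the ligand of Tnfrsf9. The 10 genes are 10 of the 54680 loci in the deposited table and were taken by gene symbol, with 1 locus for each symbol. The set was selected on earlier results of these same libraries, in which Tnfrsf9 had one of the highest ratios between them, so the ratio of Tnfrsf9 is given as a description and supports nothing further.

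The group CT26shSetdb1 received lentivirus with a short hairpin RNA that targets Setdb1, and the group CT26shCtrl carried the empty knockdown vector and is labelled wild type. Both were kept in RPMI medium with serum and taken after 6 days, when the knockdown cells are described as differentiated. Neither a second hairpin nor a clone is named in the labels, and each group was 1 RNA sequencing library from total RNA. No difference below therefore has a replicate check, no p-value was computed, and every comparison is between these 2 libraries. Levels are FPKM, fragments scaled by gene model length and by a depth common to both libraries, so they can be compared between genes. Between the libraries they still carry the ratio of read totals, 1.03. These libraries are called shCtrl and shSetdb1 below. Whole reads could be read back from the values, 18421604 in the shCtrl library and 19045830 in the shSetdb1 library. Read ratios are given knockdown over control, relative to these totals, with 95% exact (Clopper-Pearson) intervals that cover counting error only. Differences between cultures or library preparations are not in these intervals. PCR copies are not independent molecules, so even the counting error may be understated. Setdb1 itself had 10.4 FPKM (1340 reads) in the shCtrl library and 2.47 FPKM (317 reads) in the shSetdb1 library, so 23.7% of the shCtrl level remained. Its model overlaps Cers2, with which some reads could be shared, and another locus of the table has the same Swiss-Prot match. The labelled cell type was checked against 8 colon epithelial markers, of which 5 were below 1 FPKM in both libraries. Epcam and Cdh1 had no read, and Krt8 had 7 and 8 reads (control and knockdown), Cdx2 5 and 18, and Vil1 1 and 7. The 3 others were at least 2-fold higher after knockdown, beside 6.81% of all genes at 1 FPKM or more in 1 or both libraries. Krt18 was at 37.7 and 90.0 FPKM, and 5 loci, Krt18 included, have the same Swiss-Prot match. Krt20 was at 5.07 and 35.6 FPKM. Krt19 had 1 and 53 reads and was above 1 FPKM after knockdown only. The summed level of the 8 was 43.2 and 128 FPKM, and their part in the results was not tested.

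Receptors of the TNF superfamily are cell surface proteins that carry cysteine-rich repeats outside the cell and bind trimeric ligands of the TNF family. Some hold a death domain inside the cell and can start apoptosis through Fadd and Casp8. Others, Tnfrsf9 among them, bind TRAF adaptor proteins and signal to NF-kappaB, a family of transcription factors. Tnfrsf9, also called 4-1BB or CD137, is best known as a costimulatory receptor that activated T cells and NK cells put on their surface. Its ligand Tnfsf9 is best known from antigen-presenting cells.

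Tnfrsf9 (ENSMUSG00000028965) lies on the plus strand of chromosome 4, from 150914562 to 150946102 in GRCm38, in a gene model of 31.5 kb with 9 annotated transcripts. RefSeq gives the gene 2 start sites, at 150920155 and 150927999, 7.84 kb apart. Both starts lie in introns of Camta1, which runs on the opposite strand. The deposited values are per gene and do not separate transcripts from these starts. Bases before each start (RefSeq, GRCm38.p6, plus strand, 5′ to 3′) are shown because they lie next to the starts of the gene with the largest ratio of the set. Which start was used was not measured. Capitals mark a match to the NF-kappaB consensus. The upstream start is shown with the 250 bases before it (chr4:150919905-150920154). The downstream start is shown with bases 250 to 82 before it (chr4:150927749-150927917) and with the 30 bases that hold the match (chr4:150927951-150927980). A further annotated transcript begins 81 bases before this start, and its first exon holds both the 30 bases with the match and the bases around them that are not shown. The match therefore lies before the RefSeq start and inside the exon of that transcript.
Tnfrsf9 upstream start: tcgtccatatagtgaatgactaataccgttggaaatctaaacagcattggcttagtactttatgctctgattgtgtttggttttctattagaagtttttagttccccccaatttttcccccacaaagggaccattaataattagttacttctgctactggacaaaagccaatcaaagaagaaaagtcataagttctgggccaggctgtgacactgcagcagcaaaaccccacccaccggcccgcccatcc
Tnfrsf9 downstream start, distal: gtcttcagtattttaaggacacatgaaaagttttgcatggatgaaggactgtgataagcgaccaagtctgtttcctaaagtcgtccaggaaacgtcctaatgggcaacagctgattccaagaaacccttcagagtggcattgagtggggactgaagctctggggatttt
Tnfrsf9 downstream start, match: cagctGGGGATTTCCCaggaggccctgctc

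The search covered both strands of windows from 250 bases before to 50 bases after each start. The downstream window held 3 overlapping matches to the NF-kappaB consensus, 2 on the plus strand and 1 on the minus strand, within bases 43 to 33 before the start. It also held the AP-1 letters TGANTCA, as TGAGTCA at bases 15 to 9 before the start, a pattern that matches on both strands at once. The upstream window held neither. An NF-kappaB match was present in 8.46% of the 32851 windows of this length in the RefSeq table, and an AP-1 match in 7.81%. Windows were found for 7 of the 10 genes, 8 windows in all, and not for Tnfsf9, Tnfrsf10b and Cd40. Among the 8 windows, the NF-kappaB consensus was in 1, that of Tnfrsf9, and TGANTCA in 2, those of Tnfrsf9 and Fas. The interferon-regulatory factor core GAAANNGAA was in 1, that of Tnfrsf1b (8.56% of all windows). The hypoxia-response core, ACGTG or GCGTG, was in 4, those of Tnfrsf1b, Tnfrsf21, Fas and Ltbr (43.8% of all windows). A match describes letters in a window and shows no binding.

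**Figure D1:**
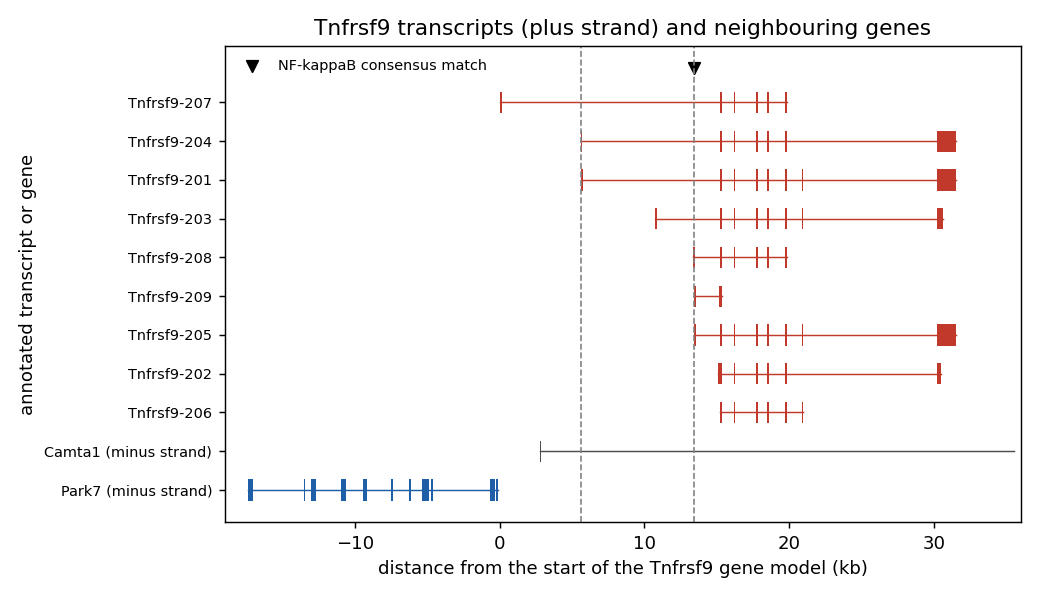
Annotated transcripts of Tnfrsf9 (red) with the exons of Camta1 (grey) and Park7 (blue), plotted by distance in kb from the start of the Tnfrsf9 gene model. Boxes are exons, the smallest drawn wider than scale so that they can be seen, dashed lines are the 2 RefSeq start sites, and the triangle marks the NF-kappaB match, which lies beside the downstream start.

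Tnfrsf9 had 8.88 FPKM (453 reads) in the shCtrl library and 205 FPKM (10471 reads) in the shSetdb1 library. The knockdown level was 23.1 times the control level in FPKM, and the read ratio was 22.4 (20.3 to 24.6). On the log2(FPKM + 1) scale used for all comparisons, which understates the difference of genes at low levels, the log2 ratio was 4.38. Of the 10671 genes with at least 1 FPKM in 1 or both libraries, Tnfrsf9 had the sixth highest ratio, and 99.9% of these genes lay below it. As the libraries are bulk RNA, more cells with the transcript and more transcript per cell cannot be told apart.

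Most of the Tnfrsf9 gene model lies within Camta1, a transcription factor gene on the opposite strand, and it begins 124 bases beyond Park7. The exons of Tnfrsf9 and Camta1 share 0 bases in the annotation. Reads from Camta1 introns could still fall on them, and their number was not measured. Camta1 had 155 reads in the shCtrl library and 370 in the shSetdb1 library, a read ratio of 2.31 (1.91 to 2.80). Park7, which encodes a protein that protects against oxidative stress, was at 133 and 155 FPKM, with a read ratio of 1.13 (1.09 to 1.17). Both neighbours were named after their values were seen, and their part in the Tnfrsf9 value was not tested.

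Markers of T cells and NK cells, in which Tnfrsf9 is best known, were near 0 in both libraries. None of the 11 T and NK cell markers reached 1 FPKM in either library. Together they had 2 reads in the shCtrl library and 9 in the shSetdb1 library, with summed levels of 0.0717 and 0.0810 FPKM. Cd3d, Cd3e, Cd2, Cd8a, Cd8b1, Ncr1 and Klrb1c had no read in either library, and Ptprc, the common leukocyte antigen, had 0 and 4 reads. The 4 B cell markers had 6 and 3 reads in all, and the 4 endothelial markers 1 and 0. Of 7 myeloid markers, Cd68 and Cd14 were above 1 FPKM, Cd68 at 10.4 and 100.2 FPKM and Cd14 at 21.7 and 41.3 FPKM. The summed level of the 7 was 33.0 and 142 FPKM. Lyz2 was just under 1 FPKM, at 0.933 FPKM (23 reads) in the shCtrl library and 0.852 FPKM (21 reads) in the shSetdb1 library. Itgax had 1 and 2 reads, Csf1r had 1 and 0, and Adgre1 and Itgam had no read in either library. The part of other cell types, and of Cd68 and Cd14, in the results was not tested.

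Tnfsf9 (ENSMUSG00000035678, chromosome 17, 57105325 to 57107757, plus strand) encodes the ligand of Tnfrsf9, and its transcript was also higher in the shSetdb1 library. It had 4.30 FPKM (104 reads) in the shCtrl library and 16.8 FPKM (406 reads) in the shSetdb1 library, a log2 ratio of 1.75. The read ratio was 3.78 (3.04 to 4.73). The level of the receptor transcript was 2.06 times that of the ligand in the shCtrl library and 12.2 times in the shSetdb1 library, in FPKM. The Tnfsf9 model overlaps Gm11110 on the opposite strand, and 14.9% of its exon bases are shared. Gm11110 had 90 and 150 reads, a read ratio of 1.61 (1.23 to 2.12), and the strand setting of the counting is not given in the sources used here, so the division of reads between them is uncertain. Cd70 and Tnfsf14, the next 2 ligand genes along this cluster, at 38.2 kb and a further 39.7 kb, had no read in either library.

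Among the death domain receptors, the TNF receptor Tnfrsf1a was well above the rest in level. Tnfrsf1a (chromosome 6, 125349362 to 125362484, plus strand), which starts inflammatory or death signalling through Tradd, was at 70.5 FPKM (3421 reads) in the shCtrl library and 100.5 FPKM (4876 reads) in the shSetdb1 library. Its log2 ratio was 0.51 and its read ratio 1.38 (1.32 to 1.44). Tnfrsf10b (chromosome 14, 69767472 to 69784411, plus strand) is the mouse receptor for the death ligand Tnfsf10, also called TRAIL. It was at 10.04 FPKM (1025 reads) and 14.8 FPKM (1510 reads), a log2 ratio of 0.52, with a read ratio of 1.42 (1.32 to 1.54). Another locus of the table has the same Swiss-Prot match as Tnfrsf10b, so its value is less certain. The same limit applies to the receptors Relt and Tnfrsf18 and the ligand Tnfsf13. It also applies to the signalling genes Traf4, Fadd, Casp8, Cflar, Map3k7, Tab2 and Chuk. Tnfrsf1a and Tnfrsf10b were both higher in the shSetdb1 library by more than counting error and by less than 2-fold.

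Fas (chromosome 19, 34290659 to 34327770, plus strand), the death receptor used by cytotoxic lymphocytes, had 3 reads in the shCtrl library and 13 in the shSetdb1 library. These are 0.0889 and 0.385 FPKM, below the filter of 1 FPKM. The read ratio of Fas was 4.19, with a wide interval of 1.15 to 22.9. Tnfrsf21 (chromosome 17, 43016555 to 43089189, plus strand), also called death receptor 6, had no read in either library, which allows up to 0.0390 FPKM when 3 reads are taken as the limit of a count of 0. Ligands of the death receptors were missing as well: Fasl, Tnfsf10 and Tnf had no read in either library.

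The receptors without a death domain, other than Tnfrsf9, had no common direction. Tnfrsf12a (chromosome 17, 23675445 to 23677468, minus strand), also called Fn14, is the receptor for the ligand Tnfsf12 and had the highest level of the 10 genes. It was at 370 FPKM (13384 reads) in the shCtrl library and 432 FPKM (15647 reads) in the shSetdb1 library, with a log2 ratio of 0.22, with a read ratio of 1.13 (1.105 to 1.157). Tnfrsf1b (chromosome 4, 145213463 to 145246870, minus strand), the TNF receptor that binds Traf2 directly, was at 31.97 FPKM (2286 reads) and 49.6 FPKM (3550 reads). The log2 ratio of Tnfrsf1b was 0.62 and its read ratio 1.502 (1.42 to 1.58). Ltbr (chromosome 6, 125306571 to 125313885, minus strand), the lymphotoxin beta receptor, which drives the noncanonical NF-kappaB pathway, was lower in the shSetdb1 library. It had 95.6 FPKM (4215 reads) in the shCtrl library and 74.2 FPKM (3270 reads) in the shSetdb1 library, a log2 ratio of -0.36, with a read ratio of 0.7504 (0.717 to 0.786). Ltbr and Tnfrsf1a lie 35.5 kb apart on chromosome 6, and their ratios pointed in opposite directions. Cd40 (chromosome 2, 165055627 to 165072948, plus strand), the receptor for the T cell ligand Cd40lg, had no read in either library, which allows up to 0.0470 FPKM, and Cd40lg had none either.

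Of the 10 genes, 7 passed the filter of 1 FPKM, and Fas, Tnfrsf21 and Cd40 did not. Of the 7, 6 were higher and 1 was lower in the shSetdb1 library, and 2 of them, Tnfrsf9 and Tnfsf9, were at least 2-fold higher on the log2(FPKM + 1) scale. Over all 10671 genes that passed the filter, 5293 were higher and 5336 were lower. By 2-fold or more, 6.81% were higher and 4.85% were lower. No member was at least 2-fold lower. The median log2 ratio of the 7 was 0.52, against -0.00039 over all genes that passed. Since Tnfrsf9 was part of the choice, nothing is read from these shares.

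**Figure D2:**
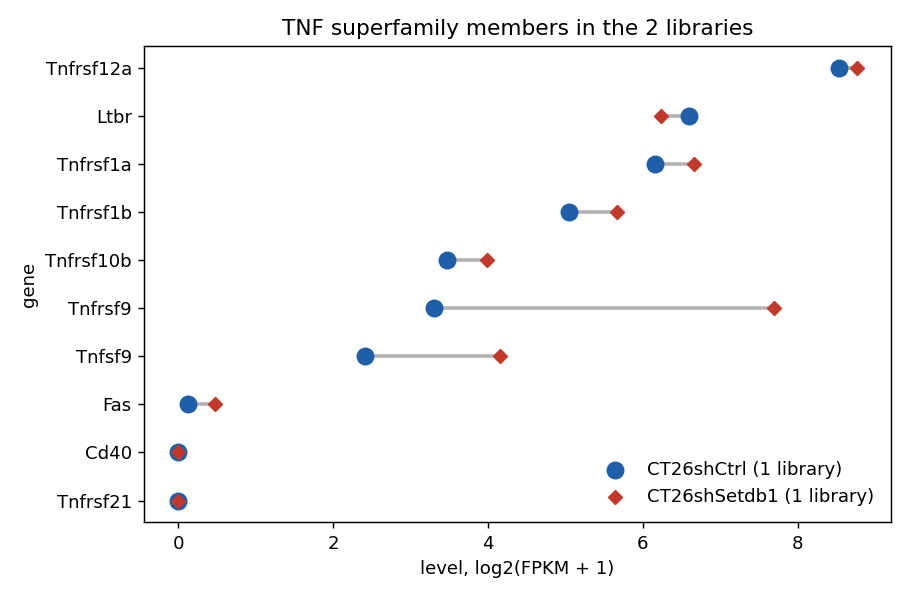
Levels of the 10 genes as log2(FPKM + 1) in the shCtrl library (circles) and the knockdown library (diamonds), 1 library each and without error bars. Tnfrsf9 moves from 8.88 to 205 FPKM, Ltbr is the gene that is lower in the shSetdb1 library, and Cd40 and Tnfrsf21 lie at 0 in both.

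The order of the receptors by level was compared over 28 receptors, the 9 of the set and 19 others, on the FPKM scale. In the control library the order began with Tnfrsf12a, Ltbr, Tnfrsf1a and Tnfrsf1b, and Tnfrsf9 was at position 8. In the knockdown library Tnfrsf9 was at position 2, between Tnfrsf12a and Tnfrsf1a. Ltbr moved from position 2 to position 4. The summed level of the 28 receptors was 639 FPKM in the shCtrl library and 966 FPKM in the shSetdb1 library. Tnfrsf9 made up 1.39% of this sum in the shCtrl library and 21.2% in the shSetdb1 library. It accounted for 60.0% of the difference of 327 FPKM between the sums, and without it the sums were 630 and 761 FPKM, a ratio of 1.21.

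The other 19 receptors came from a list of the superfamily drawn up with earlier results of these data known. Of them, 6 passed the filter and 5 had no read in either library. Relt and Tnfrsf23 were at least 2-fold higher in the shSetdb1 library, and none was at least 2-fold lower, which is 2 and 0 of 6 beside 6.81% and 4.85% of all genes. Relt, a receptor of lymphoid tissues, had 2.21 FPKM (136 reads) in the shCtrl library and 9.41 FPKM (578 reads) in the shSetdb1 library. Its log2 ratio was 1.70 and its read ratio 4.11 (3.40 to 4.99), and 3 loci of the table, Relt included, have the same Swiss-Prot match. Tnfrsf23, a mouse decoy receptor for Tnfsf10, was at 23.4 and 49.0 FPKM, a log2 ratio of 1.04. That value was 0.99 when the libraries were scaled by their own read totals and 0.98 when scaled by the upper quartile, both under 2-fold. Tnfrsf22, its neighbour 16.1 kb away and likewise a decoy receptor, was at 19.0 and 24.2 FPKM, with a log2 ratio of 0.33. Both models also overlap E230032D23Rik, and the 2 decoy genes resemble each other in sequence, so reads could be assigned to either.

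Eda2r, a receptor for a form of ectodysplasin, was the lowest of the other receptors in ratio. It had 3.21 FPKM (354 reads) in the shCtrl library and 1.22 FPKM (135 reads) in the shSetdb1 library, a log2 ratio of -0.92, with a read ratio of 0.369 (0.3002 to 0.451). With a pseudocount of 0.1 in place of 1 its log2 ratio was -1.32, past 2-fold. Tnfrsf17, the B cell maturation antigen, had 22 and 42 reads, and Tnfrsf14, which binds Tnfsf14 and Btla, had 34 and 29. The interval of the Tnfrsf14 read ratio, 0.485 to 1.40, included 1. Costimulatory receptors of T cells related to Tnfrsf9 were near 0. Tnfrsf4, also called OX40, had 5 and 3 reads, Tnfrsf18, also called GITR, had 7 and 9, and Cd27 had 0 and 3. Tnfrsf25 had 0 reads in the shCtrl library and 7 in the shSetdb1 library. The ratio was 2.26 when 3 reads are taken as the floor of the shCtrl library. That value leaves out the counting error of the 7 reads, and the counting interval of the ratio starts at 1.39.

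**Figure D3:**
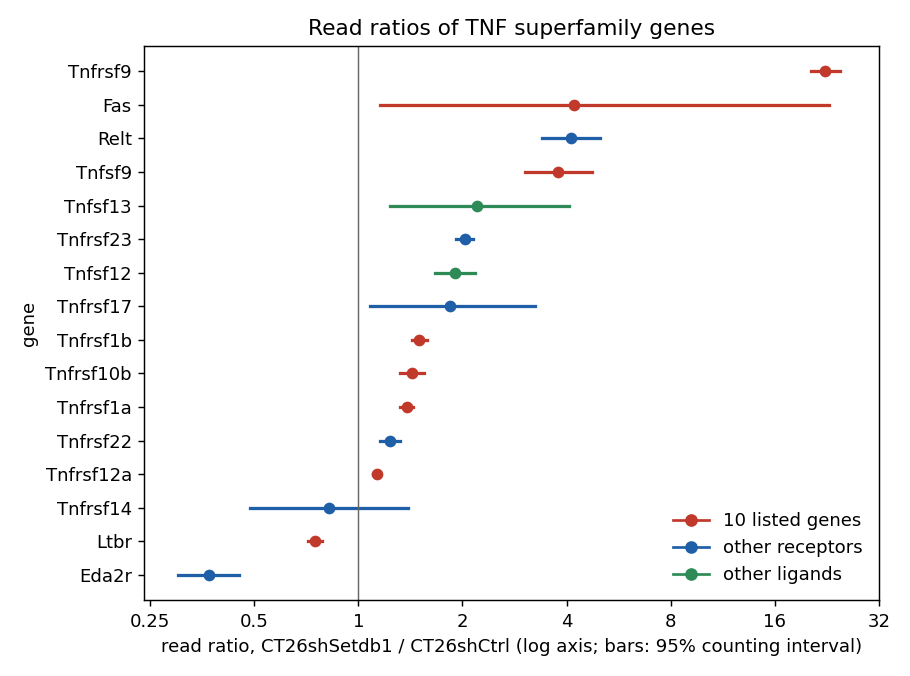
Read ratios, knockdown over control, on a log axis for the superfamily genes at 1 FPKM or more and for Fas, with bars for the 95% counting intervals (1 library a group, no replicate error). Tnfrsf9 lies at 22.4, Fas at 4.19 (3 and 13 reads, below the filter), Relt at 4.11 and Tnfsf9 at 3.78, and Eda2r lies lowest at 0.369.

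Ligands were scarce in both libraries. Of the 17 ligands other than Tnfsf9, 11 had no read in either library and 2 passed the filter, Tnfsf12 and Tnfsf13. Tnfsf12, also called TWEAK and the ligand of the abundant receptor Tnfrsf12a, had 12.2 FPKM (346 reads) in the shCtrl library and 24.0 FPKM (681 reads) in the shSetdb1 library. Its log2 ratio was 0.92 and its read ratio 1.90 (1.67 to 2.17). Tnfsf13, also called APRIL, had 0.587 FPKM (18 reads) and 1.34 FPKM (41 reads), a read ratio of 2.20 (1.24 to 4.07). It passed the filter through the shSetdb1 library alone. The genes lie next to each other on chromosome 11. Both overlap Tnfsfm13, a read-through locus with 20 and 55 reads, and Tnfsf13os on the opposite strand, with 18 and 6 reads. The reads of these loci could therefore be divided differently. Lta, a ligand of the TNF receptors, had 2 and 0 reads, and Ltb, the partner of Lta in the ligand of Ltbr, had 0 and 2.

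Adaptors and enzymes downstream of the receptors were described from a list of 30 genes. Of these, 28 passed the filter, 16 higher and 12 lower in the shSetdb1 library, although Cflar and Map3k5 among the 16 turned below 0 under upper-quartile scaling. The median log2 ratio was 0.06. Among all 10671 genes that passed the filter, 5293 were higher and 5336 were lower. At least 2-fold higher were 4 (Traf1, Traf5, Rnf31 and Tradd), and 1 was at least 2-fold lower (Tab2). Over all genes these shares were 6.81% and 4.85%, and with lists of this size nothing is read from the difference. Traf5 passed the filter through the shSetdb1 library alone, and with a filter at 5 FPKM 3 genes were higher. Traf1, an adaptor that joins Traf2 at Tnfrsf9 and other receptors, had the highest ratio, with 1.16 FPKM (192 reads) in the shCtrl library and 6.88 FPKM (1137 reads) in the shSetdb1 library. Its log2 ratio was 1.87 and its read ratio 5.73 (4.91 to 6.71). Traf5 had 0.561 FPKM (48 reads) and 3.06 FPKM (262 reads), a log2 ratio of 1.38, with a read ratio of 5.28 (3.87 to 7.34). The Traf5 model overlaps the pseudogene Gstp-ps, with which its exons share 0 bases.

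Traf2, the adaptor that binds Tnfrsf9 and Tnfrsf1b, was at 18.6 and 30.7 FPKM, a log2 ratio of 0.70. Traf3, which restrains the noncanonical pathway, had a log2 ratio of 0.09. Traf4 and Traf6 were lower in the shSetdb1 library, with log2 ratios of -0.57 and -0.32. The adaptors thus ran from Traf1 at the top to Traf4 at the bottom, without a common direction. Tradd, the adaptor of Tnfrsf1a, was at 26.4 and 58.8 FPKM, a log2 ratio of 1.13. Fadd, Ripk1 and Cflar, which take part in death signalling, had log2 ratios of 0.09, 0.15 and 0.05. Casp8, the protease that carries that signal, had 0.47.

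Rnf31, the catalytic subunit of the linear ubiquitin ligase that acts at TNF receptors, was at 9.22 FPKM (990 reads) in the shCtrl library and 23.7 FPKM (2542 reads) in the shSetdb1 library. Its log2 ratio was 1.27. Its model overlaps Irf9, an interferon response gene on the same strand with 640 and 2625 reads, and 2.15% of the exon bases of Rnf31 are shared. The partners of Rnf31 in the ligase were nearly level, Rbck1 with a log2 ratio of -0.14 and Sharpin with 0.07. Tab2, which links ubiquitin chains to the kinase Map3k7, had 11.5 FPKM (1316 reads) and 4.804 FPKM (552 reads), a log2 ratio of -1.10, with a read ratio of 0.406 (0.367 to 0.448). Map3k7 itself had a log2 ratio of -0.52, and the kinase genes Chuk and Ikbkb and their regulatory partner Ikbkg had -0.53, -0.13 and -0.40. Map3k14, the kinase of the noncanonical pathway, was at 3.72 and 7.09 FPKM, a log2 ratio of 0.78.

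NF-kappaB genes were given beside these for comparison. Nfkbia, which encodes an inhibitor that NF-kappaB itself induces, had 12.8 FPKM (387 reads) in the shCtrl library and 52.3 FPKM (1577 reads) in the shSetdb1 library, a log2 ratio of 1.95, with a read ratio of 3.94 (3.52 to 4.42). Of the 5 subunits, none was 2-fold higher or lower on the log2(FPKM + 1) scale, beside 6.81% and 4.85% of all genes. Nfkb2 and Relb, the noncanonical pair, were higher in the shSetdb1 library, with log2 ratios of 0.72 and 0.74. Rela and Rel were lower, at -0.64 and -0.71, and Nfkb1 was at 0.14. Rel had 1.15 FPKM (161 reads) in the shCtrl library and 0.315 FPKM (44 reads) in the shSetdb1 library. Its read ratio was 0.264 (0.185 to 0.371), past 2-fold, and with a pseudocount of 0.1 its log2 ratio was -1.59.

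**Figure D4:**
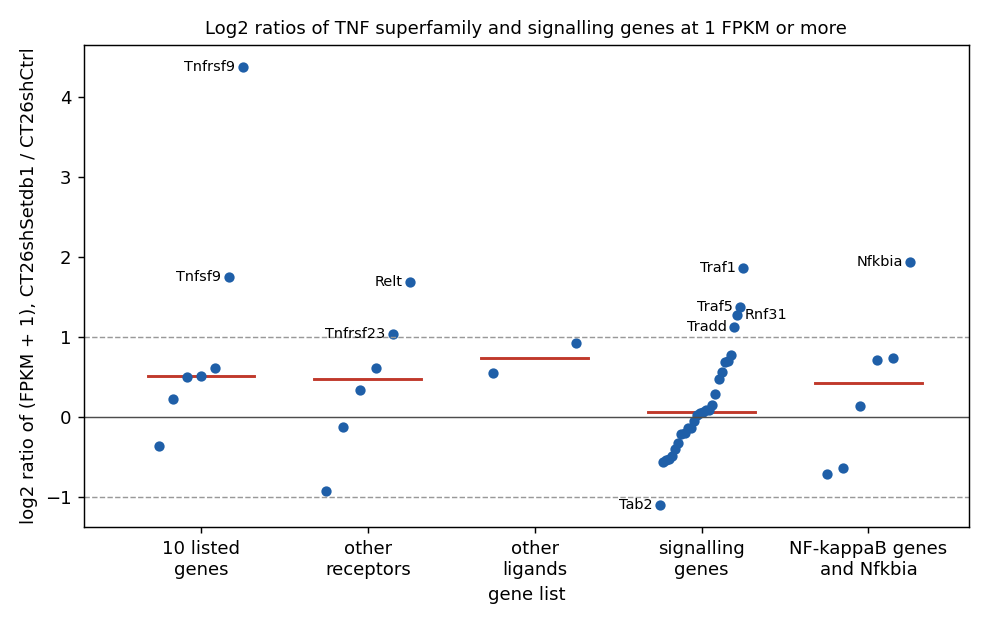
Log2 ratios of (FPKM + 1), knockdown over control, for the genes of each list that passed the filter, with a red bar at each list's median, dashed lines at 2-fold and a solid line at the median of all 10671 genes. Tnfrsf9 lies highest at 4.38, and the 28 signalling genes spread on both sides of 0 around a median of 0.06.

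The genes with the log2 ratio nearest to that of Tnfrsf9 were sought among 6386 other protein-coding genes that reached 5 FPKM in 1 or both libraries. The likeness is the difference of log2 ratios over 2 libraries and says nothing of shared control. Among the 4 nearest were Ifi27l2a, an interferon-induced gene, Ankrd37, an ankyrin repeat gene, and Car9, a carbonic anhydrase. Their log2 ratios were 4.34, 4.45 and 4.51. Ifi27l2a had 320 reads in the shCtrl library and 6634 in the shSetdb1 library, and Tnfrsf9 had 453 and 10471. Ankrd37 had 12 and 863 reads, and Car9 had 30 and 1626. In the shCtrl library these 2 genes were at 0.416 and 0.695 FPKM, where the log2(FPKM + 1) scale understates the difference. In reads both rose by a larger factor than Tnfrsf9, so their likeness holds on that scale only.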

How the data were processed

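RNA sequencing was measured in 2 CT26 libraries, 1 for each group, matched to columns by the library names in the labels. The authors deposited FPKM values with gene model lengths. Per the submitters' processing notes, CASAVA, HISAT2, featureCounts 1.5.0-p3 and GRCm38 were used, with no role stated. The strand setting is not given in the sources used here. Positions of 98.3% of the 54409 IDs found in GENCODE M21 matched it, as did those of 9 of the 10 genes, Fas being the exception.

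Reads were recovered as FPKM times length over the smallest such value, taken as 1 read, and 100% of values above 0 were whole within 0.01. Both columns had been divided by a common depth of 18731117 reads, so log2 ratios still carry the ratio of totals, 1.03. Ratios are log2 of (FPKM + 1), with a filter of 1 FPKM in at least 1 library and a 2-fold threshold. The calculations were tested on simulated data.

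The members and lists were chosen with earlier results of these data known. Named genes are Setdb1, the members, the list genes past 2-fold, the highest and lowest of each list, other list genes at 1 FPKM or more, and the 4 genes nearest to Tnfrsf9 in ratio, of which 1 is not reported here. Genes outside that rule (markers, overlapping or neighbouring genes and list genes under 1 FPKM) were chosen after their values were seen. A symbol found on several loci was represented by the one with the highest read total. Alternatives were a pseudocount of 0.1, scaling by the median ratio, the upper quartile or own read totals, 1.5-fold and 4-fold thresholds, no filter and a filter at 5 FPKM. CPM of recovered reads was an added alternative, chosen after seeing the data. Tools were matplotlib 3.10.9, scipy 1.17.1, pandas 2.3.3, numpy 2.4.6 and Python 3.11.15.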

Additional observations from a re-analysis of the deposited data

How the results depend on the processing

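No paired analysis was possible because neither group had replicates, and no library could be left out. Tnfrsf9 kept a log2 ratio between 4.33 and 4.52 under the alternatives run, and no member changed sign. Of 51 genes recomputed, Cflar and Map3k5 changed sign, both under 0.05 in size. Setdb1 was at -2.06 on log2(CPM + 1) and -2.04 with a pseudocount of 0.1, as a pseudocount that is small beside the value shrinks ratios less. Counts at other settings were as follows. Shares over all genes are given at the main setting only, so nothing is read from these counts. At 4-fold on the log2(FPKM + 1) scale, 1 of the 10 genes, 0 other receptors and 0 signalling genes were higher, and 0 signalling genes lower. In reads, Traf1, Traf5 and Relt were past 4-fold, with read ratios of 5.73, 5.28 and 4.11, which that scale understates. At 1.5-fold, 3 of the 10 genes, 3 other receptors, 7 signalling genes and 1 other ligand were higher, and 1 other receptor was lower. With a pseudocount of 0.1, 1 other receptor was lower and 1 other ligand higher. With the filter at 5 FPKM, 3 signalling genes were higher. Scaling by the upper quartile or by own read totals left 1 other receptor higher in place of 2, since it lowers ratios and Tnfrsf23 lay near 2-fold. Of the scalings, the upper quartile shifted the median over all genes furthest, to -0.0531 on the log2 scale. Depth limits Fas, Tnfrsf25 and the ligands with few reads.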
